A study of Sus scrofa with 21 samples.

Results

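The 9 genes described here encode the pumps and channels that move calcium ions out of the cytoplasm and back into it from internal stores, and their mRNA was measured in whole testis tissue of 21 boars. They were chosen by symbol: the rows of the count files whose Ensembl pig gene identifier carries the name of a plasma membrane calcium pump (ATP2B1, ATP2B2, ATP2B4), a reticulum pump (ATP2A2, ATP2A3), the Golgi pump ATP2C1 or an inositol trisphosphate (IP3) receptor (ITPR1, ITPR2, ITPR3). Each symbol matched 1 row, so that 9 of the 25880 genes in the files were described, of which 6 encode pumps and 3 encode receptors.

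A resting cell keeps calcium low in the cytoplasm and high outside the cell and in the endoplasmic reticulum. ATP2B pumps expel calcium across the plasma membrane, ATP2A pumps (SERCA) load the reticulum, and ATP2C1 loads the Golgi apparatus. When a phospholipase C produces IP3, the IP3 receptors open and release the stored calcium. In spermatozoa a rise in calcium is needed for hyperactive motility, the vigorous, non-linear swimming of capacitated sperm. ATP2B4 is known as the main plasma membrane pump of the sperm flagellum, and IP3 receptors have been described at the acrosome and in the redundant nuclear envelope of the sperm neck.

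The boars were purebred Landrace (13) and Duroc (8) animals used for artificial insemination, and they were selected for repeated extreme values of sperm hyperactivity measured by computer-assisted semen analysis. In Landrace, 4 boars had low and 4 had high hyperactivity in fresh semen (day 0). A low change in hyperactivity over 96 h of storage marked 4 boars and a high change 3. L2 (low) and L7 (high) belonged to both Landrace comparisons, which therefore share 2 boars. For Duroc, 5 boars were labelled high and 3 low. The study's own list of boars gives 7 of these 8 names the opposite group, so that the Duroc comparison follows the labels only and its direction is uncertain. The labels name no treatment, allele or age for any boar. Hyperactivity was measured in ejaculates and mRNA in testis tissue taken at slaughter, and only ejaculates that had passed a routine quality check were measured.

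The depth was 41358671 to 125576407 counts per library in Duroc and 47988011 to 97059970 in Landrace. Levels are CPM, counts scaled to library size, after trimmed mean of M values (TMM) normalization over the 21 libraries. They are not divided by gene length, so that levels of different genes were not compared. Markers of elongating spermatids summed to between 6245 and 15110 CPM, and the lowest sum was that of L13, a Landrace boar with high change. The same library had the highest sum of macrophage markers (219 CPM, against 57.8 to 133 CPM in the other 20). The Sertoli cell marker AMH, which is switched off as these cells mature, was at 0 counts in every library.

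On the Sscrofa11.1 assembly the RefSeq annotation places ATP2B1 at chr5:92935688-93061406, ATP2B2 at chr13:66526508-66897125 and ATP2B4 at chr9:64336354-64445669. The reticulum pumps lie at chr14:31674659-31744981 (ATP2A2) and chr12:49980488-50014006 (ATP2A3), and ATP2C1 at chr13:1461562-1580035. The receptor genes lie at chr13:61068131-61398918 (ITPR1), chr5:46935923-47465681 (ITPR2) and chr7:29835922-29901305 (ITPR3). ATP2B2 and ITPR1 are thus on the same chromosome, as is ATP2C1. The identifiers in the files are ENSSSCG00000027898 (ATP2B1), ENSSSCG00000023084 (ATP2B2) and ENSSSCG00000015273 (ATP2B4) for the plasma membrane pumps and ENSSSCG00000034386 (ATP2A2), ENSSSCG00000017874 (ATP2A3) and ENSSSCG00000011183 (ATP2C1) for the pumps of the internal stores. For the receptors they are ENSSSCG00000023437 (ITPR1), ENSSSCG00000000555 (ITPR2) and ENSSSCG00000001518 (ITPR3). Counts refer to whole genes, not to single exons or transcripts.

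Of the 9 genes, 7 were measured with at least 624 counts in every library. ATP2A2, the housekeeping reticulum pump, ran from 473 to 766 CPM over the 21 boars, ATP2C1 from 164 to 303 CPM, and ATP2B4 from 70.1 to 104 CPM. ATP2B1, the pump found in most tissues, ran from 13.3 to 33.4 CPM. The receptors ran from 12.4 to 71.6 CPM (ITPR1), 15.9 to 54.1 CPM (ITPR2) and 10.4 to 46.6 CPM (ITPR3). The remaining pair was close to the limit of the measurement. ATP2B2, a pump best known from neurons and the inner ear, had 5 to 52 counts per library. ATP2A3, known from blood cells and secretory epithelia, had 4 to 107 counts. Neither reached 1 CPM in enough libraries to be tested in any comparison.

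**Figure D1:**
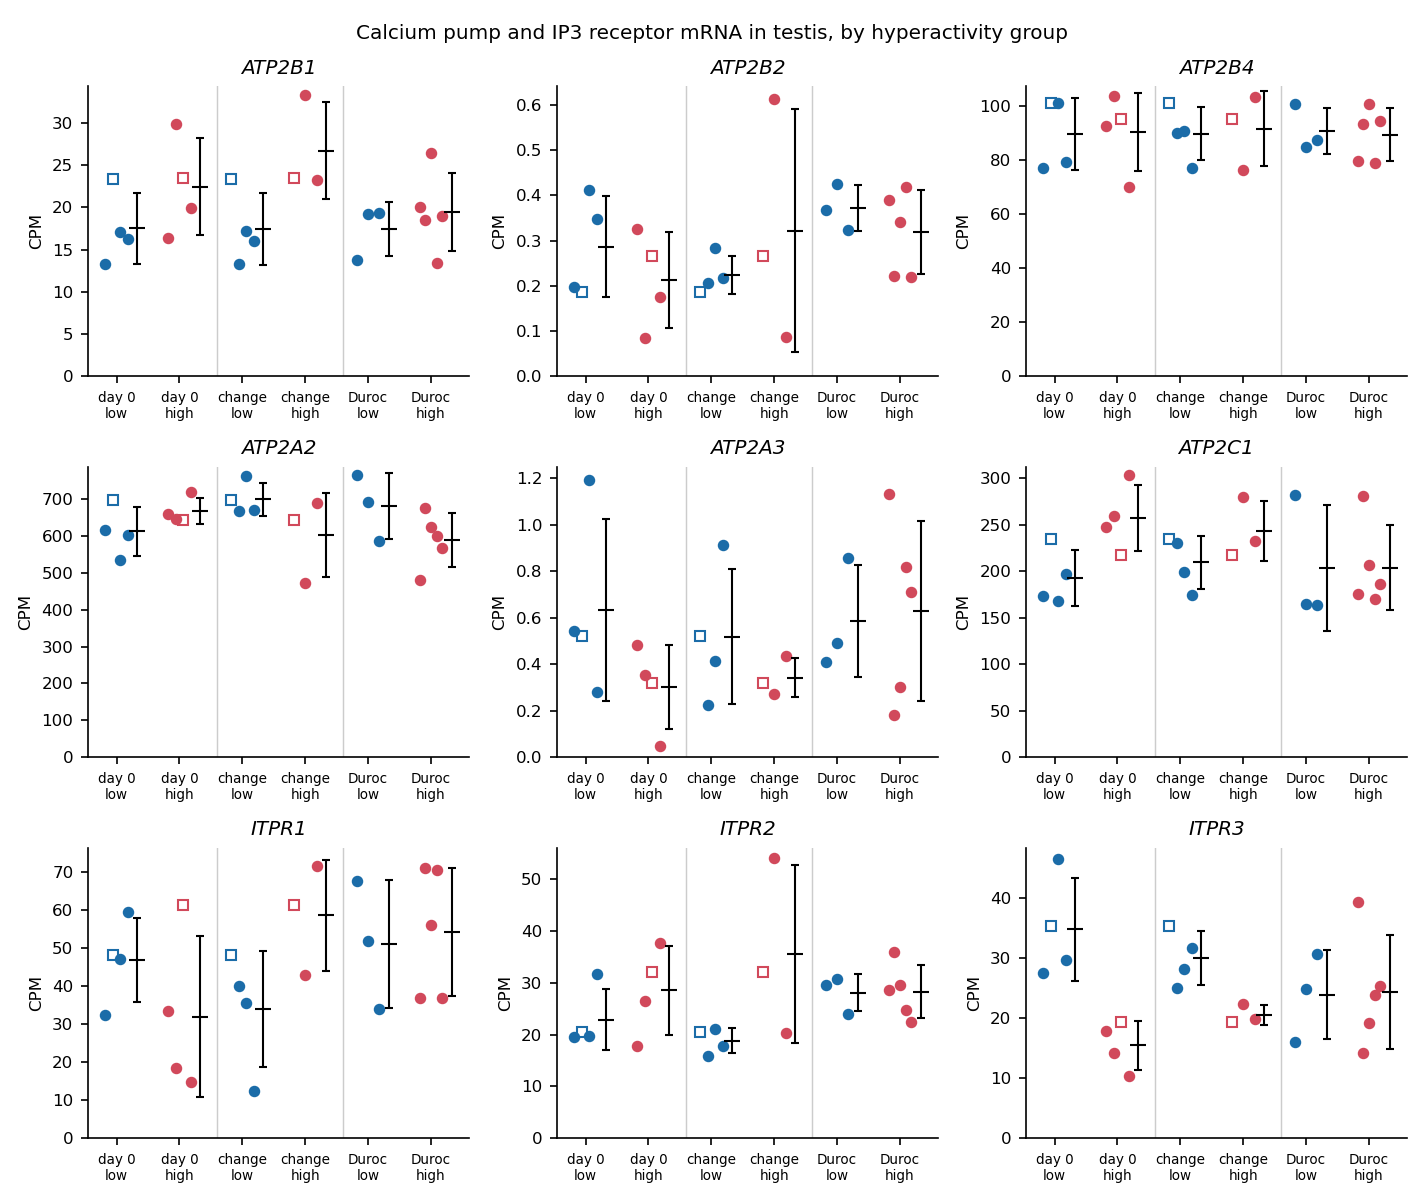
Each panel gives the CPM of 1 gene (vertical axis, from 0) in the 6 groups of boars (horizontal axis), with 1 point per boar and the group mean ± SD beside it in black. Open squares are L2 and L7, which appear in both Landrace comparisons. Low groups are blue and high groups red. The day 0 groups of ITPR3 do not overlap, with 27.5 to 46.6 CPM in the low and 10.4 to 19.4 CPM in the high boars.

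The first comparison asked which genes differ in testis between Landrace boars with high and low sperm hyperactivity at day 0. ITPR3 was lower in the boars with high hyperactivity, and it was the 1 gene called among the 7 tested. The low boars L1, L2, L3 and L4 had 27.5, 35.4, 46.6 and 29.8 CPM of ITPR3, and the high boars L5, L6, L7 and L8 had 18.0, 14.3, 19.4 and 10.4 CPM. All 4 high boars were below all 4 low boars. ITPR3 averaged 34.8 ± 8.52 CPM in low and 15.5 ± 4.04 CPM in high boars (SD, n = 4 each). The fitted log2 fold change of ITPR3, high over low, was -1.24 (SE 0.24, 95% interval -1.76 to -0.72), which is 2.36-fold lower in the high boars. The adjusted p of ITPR3 was 0.0208 in the edgeR quasi-likelihood test. A two-sided exact permutation test on log2 CPM of ITPR3 gave p = 0.0286, the smallest value that 4 against 4 boars allow.

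This call stands on a wide background. Of all 12979 genes tested at day 0, 20.7% were called, and 15.8% were called lower in the high boars. Groups did not overlap for 31.4% of the tested genes. The 1 called gene among the 7 tested is thus no more than the share of all genes. Leaving out single boars gave log2 fold changes of ITPR3 from -1.38 to -1.08, and the adjusted p rose to 0.0504 without L3 and to 0.0532 without L6 (edgeR quasi-likelihood test). In each of these 2 fits only 1 gene of all those tested was called, against 2682 with all 8 boars. The day 0 groups also differed in a measure of the libraries, the share of reads with more than 1 place in the genome. It was 7.53, 7.53, 7.79 and 7.92% in the low boars L1 to L4 and 7.20, 6.62, 7.07 and 5.83% in the high boars L5 to L8, without overlap. Its part in the ITPR3 result was not tested. The TMM factors over the 21 libraries did not overlap either. They were 1.03, 1.04, 1.18 and 1.03 in L1 to L4 and 0.91, 0.95, 0.99 and 0.82 in L5 to L8. With library size only, the log2 fold change of ITPR3 was -1.40 (adjusted p = 0.0186, edgeR quasi-likelihood test).

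**Figure D2:**
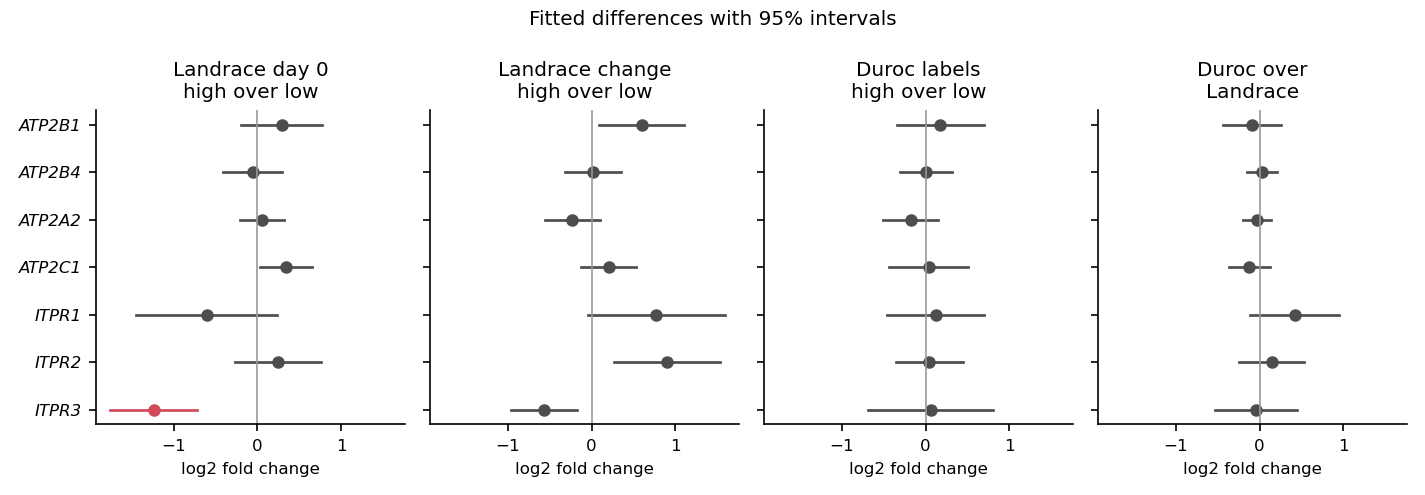
Points are fitted log2 fold changes (horizontal axis) of the 7 genes tested, with their 95% intervals as lines, in the 4 comparisons. Red marks an adjusted p under 0.05. ITPR3 at day 0 (-1.24) is the single red point.

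The other receptors did not pass the test at day 0. ITPR1, the receptor best known from neurons, had 32.4, 48.2, 47.1 and 59.5 CPM in the low boars L1 to L4 and 33.4, 18.5, 61.3 and 14.8 CPM in the high boars L5 to L8. The highest value of ITPR1 was thus in a high boar, L7, and the groups overlapped. The log2 fold change of ITPR1 was -0.61 (95% interval -1.45 to 0.23, adjusted p = 0.239, edgeR quasi-likelihood test). Without L7 it was -1.16 with an adjusted p of 0.0223, so that this 1 boar decided whether ITPR1 was called. ITPR2 had 19.6, 20.5, 19.8 and 31.7 CPM in the low and 17.8, 26.5, 32.1 and 37.8 CPM in the high boars, with a log2 fold change of 0.24 (95% interval -0.27 to 0.76).

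None of the 4 pumps tested at day 0 was called. The Golgi pump ATP2C1, which also carries manganese, had 173, 234, 168 and 196 CPM in the low boars and 248, 260, 218 and 303 CPM in the high boars. One low boar, L2, was above one high boar, L7. The log2 fold change of ATP2C1 was 0.34 (95% interval 0.03 to 0.65), with an adjusted p of 0.0921 in the edgeR quasi-likelihood test and p = 0.0571 in the exact permutation test. Log2 fold changes were 0.29 for ATP2B1 (95% interval -0.20 to 0.77), -0.06 for ATP2B4 (95% interval -0.41 to 0.29) and 0.05 for ATP2A2 (95% interval -0.21 to 0.31). The median over all genes tested was 0.03. For ATP2A3 the low boars had 0.28 to 1.19 CPM and the high boars 0.05 to 0.48 CPM. Without the filter the fitted log2 value of ATP2A3 was -1.10 (adjusted p = 0.190), and with the looser filter of edgeR it was -1.12 (adjusted p = 0.173, edgeR quasi-likelihood test in both).

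Testis is a mixture of cell types, and in such tissue fewer cells of a type and less RNA per cell cannot be told apart. Of the 10 sums of cell type markers, 1 did not overlap between the day 0 groups, and it was higher in the high boars, where ITPR3 was lower. The summed level of the 5 spermatocyte markers matched was 1260 to 1976 CPM in the high and 853 to 1176 CPM in the low boars, without overlap, although none of the 5 genes was called singly. The sum of the peritubular and smooth muscle markers was 17.6 to 63.0 CPM in the high and 47.9 to 103 CPM in the low boars, and 2 of the 4 markers tested were called lower. Sertoli markers summed to 688 to 1162 CPM in the high and 879 to 1303 CPM in the low boars, with none of 7 called, and round spermatid markers to 1565 to 2608 and 1285 to 1699 CPM, with none of 3 called. For elongating spermatids 3 of 7 markers were called lower, while the sums overlapped at 11277 to 15110 and 8882 to 13485 CPM. Blood markers, of which HBM was at 0 in all libraries, summed to 0.675 to 3.23 CPM in the high and 1.57 to 19.5 CPM in the low boars, and the 1 marker tested was called lower. The sums of Leydig, endothelial, macrophage and spermatogonial markers overlapped, and none of their genes was called. The part of these markers in the ITPR3 result was not tested.

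Over all Landrace boars, ITPR3 was lower where the summed spermatocyte markers were higher. Pearson's r of log2 levels was -0.896 (Spearman's rho -0.83, n = 13), with permutation p of 6e-05 for r and 0.0009 for rho. Adjusted over the 234 relations of the 9 genes with 13 measures in both breeds, the p-values were 0.014 and 0.086. Leaving out the 2 boars farthest from the median marker sum gave r = -0.714. In Duroc r was -0.843 and rho -0.81 (n = 8), with exact permutation p of 0.0097 and 0.022, adjusted p of 0.11 and 0.21, and r = -0.744 without the 2 farthest boars. With the peritubular sum, r of ITPR3 was 0.833 in Landrace (rho 0.604, permutation p = 0.00066 and 0.034, adjusted 0.031 and 0.24, r = 0.56 without the 2 farthest). In Duroc it was 0.849 (rho 0.881, exact permutation p = 0.0094 and 0.0072, adjusted 0.11 and 0.12, r = 0.725 without the 2 farthest). With the round spermatid sum, r was -0.837 in Landrace (rho -0.786, permutation p = 0.00042 and 0.0022, adjusted 0.031 and 0.12, r = -0.721 without the 2 farthest). In Duroc it was -0.802 (rho -0.81, exact permutation p = 0.019 and 0.022, adjusted 0.15 and 0.21, r = -0.818 without the 2 farthest). With the Sertoli sum, r was 0.63 in Landrace (rho 0.555, permutation p = 0.022 and 0.053, adjusted 0.16 and 0.28, r = 0.661 without the 2 farthest). In Duroc it was 0.958 (rho 0.952, exact permutation p = 0.00055 and 0.0011, adjusted 0.031 and 0.086, r = 0.886 without the 2 farthest). For each of these 4 sums r of ITPR3 had the same sign in both breeds, and for the other 6 no adjusted p was under 0.05. Such relations were not limited to ITPR3. With the spermatocyte sum, r of ATP2A3 was -0.845 in Landrace (permutation p = 0.00098, adjusted 0.033, r = -0.458 without the 2 farthest). In Duroc it was -0.933 (exact permutation p = 0.0015, adjusted 0.044). With the peritubular sum, r of ATP2A2 was -0.924 in Duroc (exact permutation p = 0.00032, adjusted 0.031) and -0.418 in Landrace (adjusted 0.4).

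**Figure D3:**
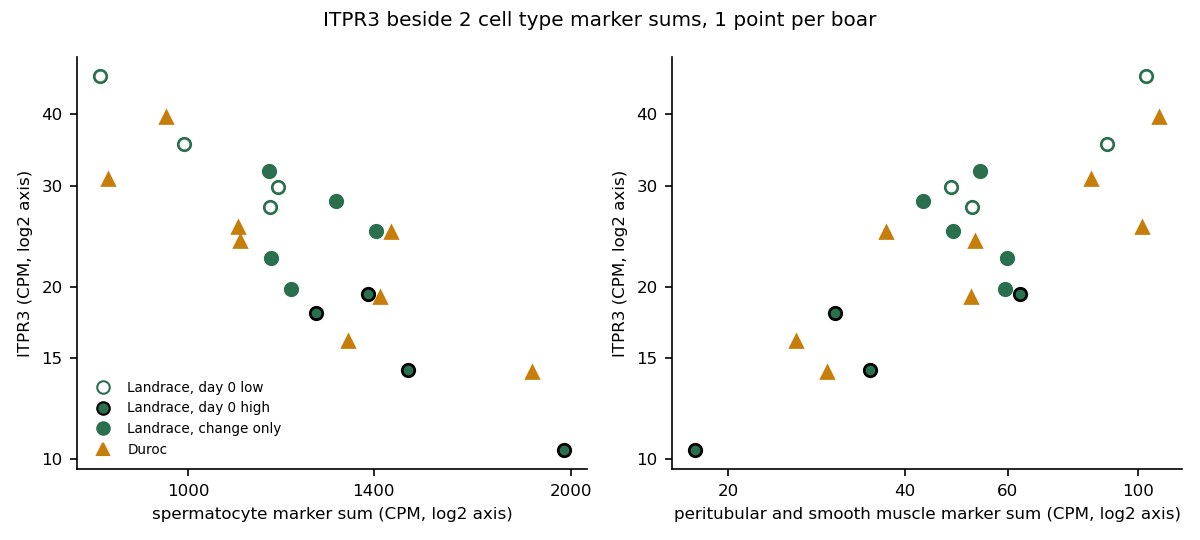
ITPR3 in CPM (vertical axis) is plotted against the summed CPM of spermatocyte markers (left) and of peritubular and smooth muscle markers (right), all on log2 axes, with 1 point per boar. Landrace boars are circles, open for day 0 low and black-edged for day 0 high, and Duroc boars are triangles. ITPR3 falls with the spermatocyte sum (r = -0.896 in Landrace) and rises with the peritubular sum (r = 0.833).

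The second Landrace comparison concerned the change in hyperactivity over 96 h of storage, and none of the 7 genes tested was called. Of the 12824 genes tested 0, or 0%, were called by the edgeR quasi-likelihood test, and 2540 had an unadjusted p under 0.05. The likelihood ratio test called 64 genes and DESeq2 116, none of them a member. The differences of the 7 tested genes are therefore given as values.

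ITPR3 had 35.4, 25.0, 28.2 and 31.8 CPM in the boars with low change (L2, L9, L10 and L12) and 19.4, 22.4 and 19.8 CPM in those with high change (L7, L13 and L15). The groups did not overlap, as for 16.4% of all genes tested. The log2 fold change of ITPR3, high over low, was -0.56 (95% interval -0.96 to -0.17, adjusted p = 0.24, edgeR quasi-likelihood test), and the exact permutation test gave p = 0.0571. The low boar L2 and the high boar L7 also stood on the low and high side at day 0, so that the values of ITPR3 in the 2 comparisons are not independent.

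ITPR1 and ITPR2 had positive values in the change comparison. ITPR1 had 48.2, 39.9, 35.5 and 12.4 CPM with low change and 61.3, 42.9 and 71.6 CPM with high change, a log2 fold change of 0.77 (95% interval -0.05 to 1.59). ITPR2 had 20.5, 15.9, 21.1 and 17.8 CPM with low change and 32.1, 54.1 and 20.4 CPM with high change. The highest ITPR2 value was that of L13, the library with few elongating spermatid and many macrophage marker reads. The log2 fold change of ITPR2 was 0.90 (95% interval 0.27 to 1.54, adjusted p = 0.24, edgeR quasi-likelihood test) and 0.47 without L13. ATP2B1 also had its highest value in L13, 33.4 CPM, with a log2 fold change of 0.60 (95% interval 0.09 to 1.11) that was 0.41 without this boar. ATP2A2 had its lowest value there, 473 CPM, with a log2 fold change of -0.23 (95% interval -0.55 to 0.10) that was -0.07 without it. Values of ATP2C1 (0.20) and ATP2B4 (0.02) were smaller.

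The balance among the receptors was also read as the share of each gene in the reads of all 3. Gene lengths were not used, so that these are shares of reads and not of transcripts, and the widest 95% Wilson interval of a single boar, which covers counting error only, spanned 3.5 percentage points. With high change, ITPR3 held 17.2, 18.8 and 17.7% of the receptor reads in L7, L13 and L15. With low change it held 34.0, 31.0, 33.3 and 51.3% in L2, L9, L10 and L12. The groups did not overlap, and the two-sided exact permutation test gave p = 0.0286, the smallest that 3 against 4 boars allow. Adjusted over the 16 such tests, of each share and of the summed level in 4 comparisons, this p was 0.229. The summed level of the receptors was 112 to 119 CPM with high and 62.0 to 104 CPM with low change (exact permutation p = 0.0571).

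At day 0 the share of ITPR3 was 21% ± 4.8 (SD, n = 4) in the high and 33.6% ± 6.77 (SD, n = 4) in the low boars (exact permutation p = 0.0571), and the ranges of 16.5 to 26.0% and 24.6 to 41.1% overlapped. The share of ITPR2 was 39.7% ± 15.9 in the high and 22.0% ± 4.12 in the low boars (SD, n = 4 each, exact permutation p = 0.0571). Single boars departed widely from these means. ITPR2 held 60% of the receptor reads in L8, ITPR3 held 51.3% in L12, and ITPR1 held 64.1% in L15. In Duroc the share of ITPR2 varied less, from 20.8 to 29.7%, while that of ITPR3 ran from 11.7% (D2) to 37.6% (D1).

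**Figure D4:**
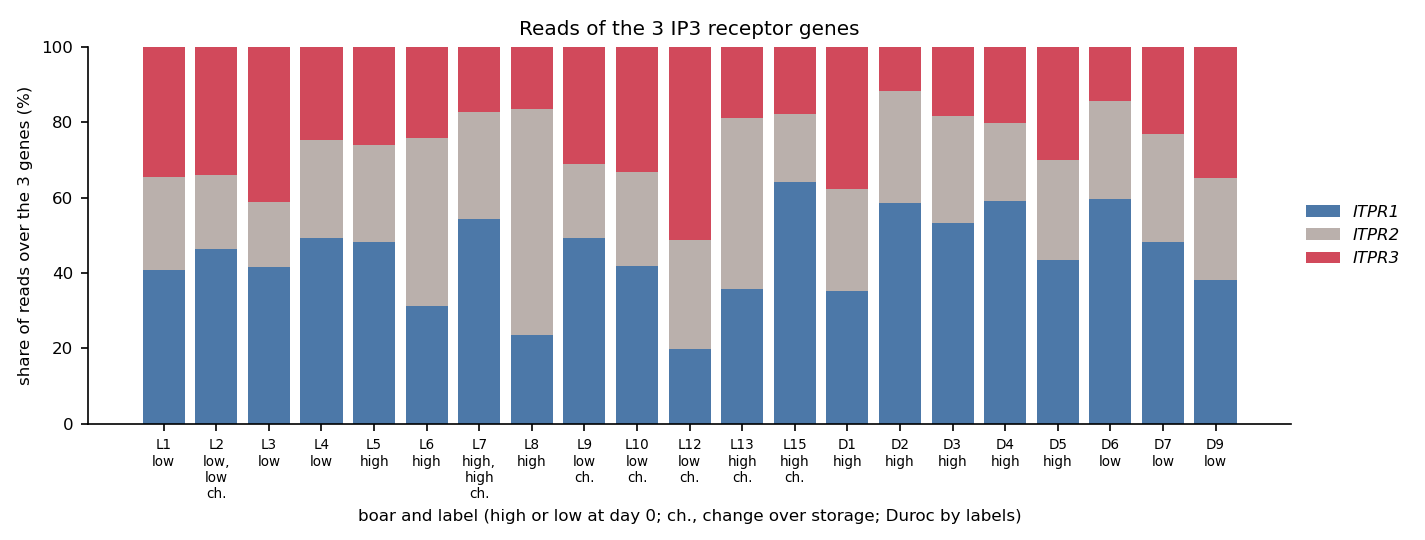
Bars give the percentage of reads of the 3 IP3 receptor genes that belong to each of them, with 1 bar per boar and the label under it (ch., change over storage). The ITPR3 share lies between 17.2 and 18.8% in L7, L13 and L15 and between 31.0 and 51.3% in L2, L9, L10 and L12.

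In Duroc, split by the labels, none of the 7 genes tested was called, and neither was any other gene. The edgeR quasi-likelihood test, the likelihood ratio test and DESeq2 called 0 of 13043 genes (0%), and 158 had an unadjusted p under 0.05 in the first of these. ITPR3 had 39.5, 14.2, 19.2, 24.0 and 25.4 CPM in the boars labelled high (D1 to D5) and 16.1, 24.9 and 30.8 CPM in those labelled low (D6, D7 and D9). The high group spanned the whole range of the low group. The log2 fold change of ITPR3 was 0.06 (95% interval -0.69 to 0.81). The interval is wide and the direction of the labels is uncertain. Whether the Duroc and Landrace differences of ITPR3 are unequal was not tested. The other 6 genes had log2 fold changes from -0.18 (ATP2A2) to 0.18 (ATP2B1). None of the 7 had groups without overlap, which held for 1.3% of all genes.

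Between the breeds none of the 7 genes tested was called either. Of 13126 genes, 378 (2.88%) were called between the 8 Duroc and 13 Landrace boars, and 0.282% had breeds that did not overlap, with none of the 7 tested members among either. ITPR1 was 53.0 ± 15.7 CPM in Duroc (SD, n = 8; lowest 33.9, median 53.9, highest 70.9) and 39.8 ± 18.1 CPM in Landrace (SD, n = 13; lowest 12.4, median 39.9, highest 71.6). Its log2 fold change, Duroc over Landrace, was 0.42 (95% interval -0.11 to 0.95, adjusted p = 0.624, edgeR quasi-likelihood test). ITPR3 was 24.3 ± 8.19 CPM in Duroc (SD, n = 8) and 25.3 ± 9.58 CPM in Landrace (SD, n = 13), with a log2 fold change of -0.04 (95% interval -0.53 to 0.45). For ATP2B4 the interval was -0.15 to 0.20 and for ATP2A2 -0.20 to 0.13. ATP2A3 was 0.612 ± 0.320 CPM in Duroc and 0.461 ± 0.299 CPM in Landrace, and ATP2B2 0.339 ± 0.0803 and 0.262 ± 0.142 CPM.

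The genes differed in how much they varied between boars of a breed. The SD of log2 CPM within breeds was 0.664 for ITPR1, higher than for 90.5% of the 13126 genes tested between breeds, 0.527 for ITPR3 (80.6%) and 0.418 for ITPR2 (67.7%). It was 0.369 for ATP2B1 (58.8%) and 0.284 for ATP2C1 (33.8%). The sperm flagellum pump ATP2B4 (0.172, 4.63%) and the reticulum pump ATP2A2 (0.186, 6.8%) were among the genes with the lowest SD. The ranks cover all tested genes whatever their level, and the part of counting noise in them was not tested. By this SD, which pools both breeds, each receptor varied more than each of the 4 pumps tested. This did not hold for ITPR2 in Duroc alone. There its SD was 15.4% of the mean CPM, against 21.6% for ATP2B1 and 24.4% for ATP2C1. Between the lowest and highest Landrace boar, ITPR1 differed 5.78-fold and ITPR3 4.5-fold, against 1.48-fold for ATP2B4 and 1.61-fold for ATP2A2. The low-count pumps ATP2A3 and ATP2B2, which were not tested, differed 23.7-fold and 7.19-fold on as few as 4 and 5 counts.

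Among the 36 pairs of the 9 genes, ITPR3 and ATP2C1 moved in opposite directions in both breeds. In Landrace r of their log2 CPM was -0.79 and rho -0.725 (n = 13), with permutation p of 0.0014 and 0.0068, adjusted over the 72 pair relations to 0.043 and 0.16. Without the 2 boars farthest in ATP2C1 r was -0.746. In Duroc r was -0.846 and rho -0.714 (n = 8, exact permutation p = 0.0069 and 0.058, adjusted 0.099 and 0.33), and r was -0.543 without the 2 farthest boars. The low-count pump ATP2A3, which like ITPR3 was lower where the spermatocyte sum was higher, moved with ITPR3. The part of that sum in the relation of ATP2A3 and ITPR3 was not tested. In Duroc r was 0.913 and rho 0.905 (n = 8, exact permutation p = 0.0017 and 0.0046, adjusted 0.043 and 0.16, r = 0.788 without the 2 farthest). In Landrace r was 0.763 and rho 0.588 (n = 13, permutation p = 0.0031 and 0.038, adjusted 0.056 and 0.33). Without L8 and L3 r was 0.334, so that this relation rests on these boars. ATP2A3 and ATP2C1 moved in opposite directions. In Landrace their r was -0.764 and rho -0.615 (permutation p = 0.0018 and 0.028, adjusted 0.043 and 0.33, r = -0.533 without the 2 farthest). In Duroc r was -0.761 and rho -0.69 (exact permutation p = 0.028 and 0.069, adjusted 0.18 and 0.33, r = -0.619 without the 2 farthest). ITPR1 and ITPR3 had r = -0.803 in Duroc (rho -0.857, exact permutation p = 0.017 and 0.011, adjusted 0.14 and 0.2, -0.849 without the 2 farthest) and 0.359 in Landrace (rho 0.22, permutation p = 0.23 and 0.47, adjusted 0.46 and 0.74, 0.357 without the 2 farthest).

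**Figure D5:**
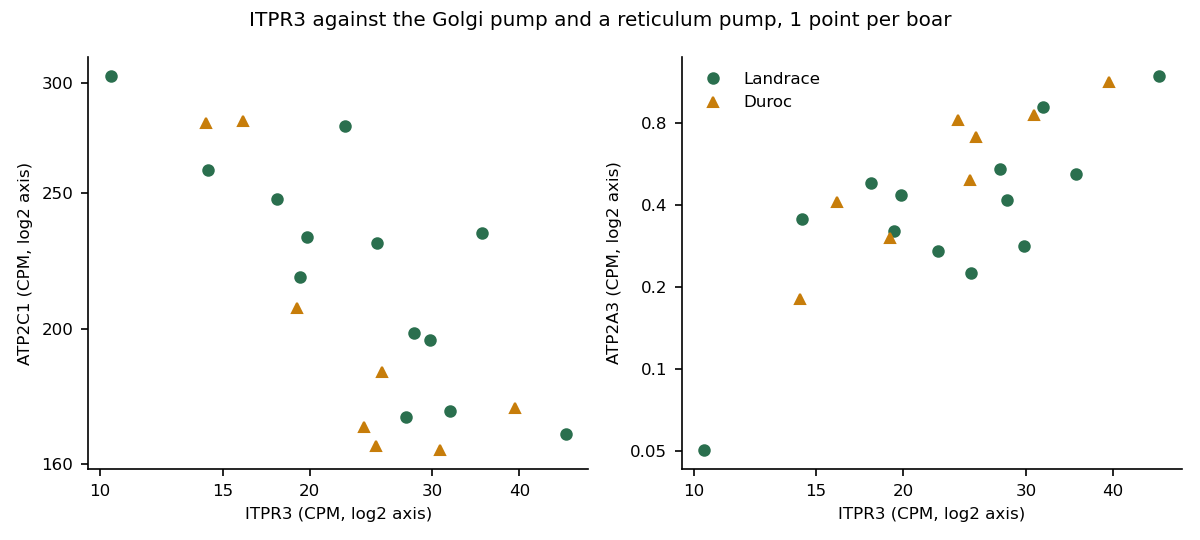
ATP2C1 (left) and ATP2A3 (right) in CPM are plotted against ITPR3 in CPM on log2 axes, with 1 point per boar, circles for Landrace and triangles for Duroc. ATP2C1 falls as ITPR3 rises in both breeds (r = -0.79 and -0.846), and L8, the lowest in ITPR3 at 10.4 CPM, is highest in ATP2C1 at 303 CPM.

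The share of reads with more than 1 place in the genome, which did not overlap between the day 0 groups, ran from 5.83 to 8.28% of the reads listed in the files over the 21 libraries. With this share r was 0.729 for ITPR3 and -0.817 for ATP2C1 in Landrace (rho 0.764 and -0.736, n = 13, permutation p of r 0.0048 and 0.00082 and of rho 0.0036 and 0.0058, adjusted 0.08, 0.032, 0.12 and 0.12, and r = 0.68 and -0.643 without the 2 farthest boars). In Duroc r was 0.928 and -0.793 (rho 0.833 and -0.786, n = 8, exact permutation p of r 0.0021 and 0.02 and of rho 0.015 and 0.028, adjusted 0.049, 0.15, 0.2 and 0.24, and r = 0.819 and -0.7 without the 2 farthest boars). The part of this measure in the relation of ITPR3 and ATP2C1 was not tested.

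For each member the genes with the closest pattern were sought among 12986 genes of at least 1 CPM on average, by Pearson's r over the 21 libraries after subtraction of each breed's mean. ITPR3 was closest to ABTB2 (r = 0.955) and FAAH (0.952), a hydrolase of endocannabinoids, and most opposed to the kinase RIOK3 (-0.96), which was named after its value was seen. ATP2B1 was closest to the splicing regulator MBNL1 (0.947) and to TMLHE (0.943), an enzyme of carnitine synthesis. The closest genes to ATP2C1 were the DNA polymerase POLK (0.914) and an unnamed gene (0.898), and to ATP2A2 the ubiquitin ligase ARIH2 (0.928) and an unnamed gene (0.91). ATP2A3 was closest to HTT (0.929) and ZNF205 (0.928). For ITPR2 these were ZNF37A (0.889) and NMI (0.885). Likeness was weaker for ITPR1, with HESX1 (0.791) and WDR49 (0.783), and for ATP2B4, with TBC1D20 (0.789) and ABHD6 (0.727). ATP2B2 was closest to a pair of unnamed genes (0.728 and 0.709). All these values are descriptions and share the same libraries.

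The other calcium genes were counted in 6 lists that held 75 matched genes, 66 of which were tested at day 0. In the day 0 comparison 11 of the 66 were called, all lower in the boars with high hyperactivity, and 30 had an unadjusted p under 0.05. Of all 12979 genes tested, 5415 had an unadjusted p under 0.05, 20.7% were called and 15.8% were called lower. Both counts over the lists were thus near this background. Without L3 or without L6 none of the list genes was called, without L1 or without L8 the number called was 6, and without L5 it was 22. The lists for pump subunits and regulators (1 of 6 called, median log2 fold change 0.31) and for proteins of the store lumen (2 of 13, median 0.28) had positive medians, against 0.03 for all genes. The genes called lower in these 2 lists were CALM3, a calmodulin gene (-0.64), SDF4, a Golgi calcium-binding protein (-1.17), and NUCB1, a nucleobindin named after its value was seen. For IP3 production and receptor regulation 5 of 23 were called and the median was -0.06. The smallest p there was that of the phospholipase PLCB3 (-1.34, SE 0.34, adjusted p = 0.0242, edgeR quasi-likelihood test), with 2.23 to 5.88 CPM in the high and 6.67 to 13.2 CPM in the low boars. The others called were PLCD1, GNA11, PLCG1 and ITPRIP, named after their values were seen. The sperm phospholipase PLCZ1, which triggers calcium release in the egg, was not called (0.40, adjusted p = 0.0798, edgeR quasi-likelihood test).

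Store-operated entry refills the reticulum through the sensor STIM1 and the ORAI channels. Of this list, with the ryanodine receptors, 2 of 11 genes were called lower at day 0. They were ORAI2 (-1.26, SE 0.30, adjusted p = 0.0223, edgeR quasi-likelihood test), with 6.80 to 18.4 CPM in the high and 22.0 to 32.2 CPM in the low boars, and STIM1, at 9.37 to 21.9 and 28.6 to 38.0 CPM, which was named after its values were seen. Among the exchangers and mitochondrial uptake genes 1 of 13 was called, LETM1 of the inner mitochondrial membrane (-0.79, adjusted p = 0.0227, edgeR quasi-likelihood test). The list medians were -0.04 and 0.05. The remaining pump genes ATP2A1, ATP2B3 and ATP2C2 were at 2.42 CPM or less in all libraries, and of these only ATP2A1 was tested, in Duroc (log2 fold change 0.00).

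In the change comparison and in Duroc by labels, none of the 66 and 67 list genes tested was called by the edgeR quasi-likelihood test, with 15 and 0 at an unadjusted p under 0.05. Between breeds 3 of 66 were called, against 2.88% of all genes. This count ran from 1 to 4 over 11 alternative fits and from 2 to 3 when single boars were left out. MICU2, a regulator of the mitochondrial calcium uniporter, was lower in Duroc (log2 fold change -0.44, SE 0.08, adjusted p = 0.00146, edgeR quasi-likelihood test), with 53.2 to 76.4 CPM against 82.4 to 111 CPM in Landrace and no overlap. INPP5A, a phosphatase that degrades IP3, was also lower in Duroc (-0.64, adjusted p = 0.017, edgeR quasi-likelihood test). ORAI1 was higher in Duroc (0.92, adjusted p = 0.0244, edgeR quasi-likelihood test), at 1.70 to 5.58 CPM against 1.0 to 2.6 CPM.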

How the data were processed

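Testis RNA of 21 boars was prepared with a stranded mRNA kit and sequenced. The authors trimmed reads with Trimmomatic 0.36, aligned them to Sscrofa11.1 with STAR and counted them per Ensembl gene with HTSeq on the reverse strand. The deposited values are raw counts of 25880 genes, 1 file per boar. Reads in more than 1 place or gene were not counted. Symbols were matched for 14857 identifiers.

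Groups followed the deposited labels, and the genes and lists were chosen with earlier results of these data known. Each comparison was fitted with edgeR 4.0.16, run under R 4.3.3: TMM normalization, genes with at least 1 CPM in 4 libraries (8 for breed), quasi-likelihood test, Benjamini-Hochberg adjustment over all genes tested, threshold 0.05. The authors used a likelihood ratio test in edgeR 3.12.1, which was run as an alternative, as were DESeq2 1.42.0, other normalizations, filters and sample choices. Single genes were compared by exact permutation of log2(CPM + 0.1), and correlations by all 40320 orders in Duroc and 100000 random orders in Landrace. In simulated data for day 0, 61 of 100 genes changed 1 log2 unit and 95 of 100 changed 2 units were recovered among 12979. At 1 unit, 56 were recovered for change, 51 in Duroc and 83 between breeds. Far more genes, 2682, were called in the day 0 data, and smaller changes were not simulated. Of the tested members only ITPR3 had a fitted day 0 change above 1 unit, so these rates do not give the power for the others. Boars of a group differed beyond counting error (chi-square per degree of freedom at least 45.9), so no library was treated as a duplicate. The p-values measure the spread between these boars, and extremes were selected. Named genes are the 9 members, in each list the genes with the smallest p in each direction where they passed, and the 2 genes closest to each member. No sequences are shown.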

Additional observations from a re-analysis of the deposited data

Results flagged for a closer look

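ITPR2 in the Landrace boar L4 stood apart from its group. It was 31.7 CPM (1912 counts), against 19.6 to 20.5 CPM in the other 3 boars with low hyperactivity at day 0, and the gap was 0.927 of the range of the group. This was the 1 value flagged among 45 groups of 4 to 8 boars examined over the 9 genes, where chance flags about 1 in 20.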

How the results depend on the processing

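ITPR3 at day 0 kept its direction and its call in all 9 alternatives that did not leave out single boars (log2 fold change -1.43 to -1.18, adjusted p 3.93e-05 to 0.0255), and lost the call without L3 or without L6. The number of members called at day 0 ran from 0 to 2 without single boars and was 2 without the 2 shared boars, when ITPR1 was called too (-1.20, adjusted p = 0.0293). The number of all genes called ran from 1 to 3764 at day 0 when single boars were left out (966 without L1, 1481 without L4, 1228 without L8), from 0 to 1 for change, from 0 to 2 in Duroc and from 268 to 491 between breeds (491 without L13, an alternative chosen after seeing the data). For change the count was 64 with the likelihood ratio test, 116 with DESeq2, and 1 without the filter and with filterByExpr. Between breeds it was 204 with the 8 day 0 Landrace boars only. At day 0 76.7% of calls were lower, against 62.8% with DESeq2, 95.9% with library size only (median of all genes -0.12) and 96.7% without the shared boars. The paper describes most of its day 0 genes as higher in the high boars, the opposite balance. Its own mean counts of DNLZ, which it names the most up-regulated gene, are lower in the high boars. The cause of this difference was not tested.

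Values close to 0 changed sign. At day 0 ATP2A2 was -0.10 with library size only and ATP2B4 0.0063 without the filter. In Duroc ATP2B4 was -0.025 with DESeq2 and with RLE, -0.013 with library size only, -0.037 without the filter and -0.0012 with filterByExpr, and ATP2C1 was -0.0073 without the filter. Between breeds ITPR3 was 0.15 with a label term. Leaving out single boars gave -0.035 to 0.077 for ATP2A2 and -0.16 to 0.062 for ATP2B4 at day 0, and -0.078 to 0.14 for ATP2B4 with change. In Duroc the ranges were -0.071 to 0.049 (ATP2B4), -0.099 to 0.31 (ATP2C1), -0.070 to 0.34 (ITPR1), -0.046 to 0.11 (ITPR2) and -0.24 to 0.34 (ITPR3). Between breeds they were -0.071 to 0.0012 (ATP2A2), -0.0031 to 0.055 (ATP2B4) and -0.20 to 0.081 (ITPR3). The cause of these shifts was not tested. No paired analysis was possible because the boar numbers name different animals in each group. Depth limits ATP2B2 and ATP2A3, with as few as 5 and 4 counts.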
